A study of Homo sapiens with 15 samples.

Results

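The HER2 amplicon neighbours are genes at 17q12 to 17q21 that lie next to the HER2 gene, which is not analysed here. They were chosen by symbol: GRB7, STARD3, PGAP3, MIEN1, IKZF3, ORMDL3, PSMD3, MED24, CDK12 and MED1. Of these 10 genes, 9 had a probe set with a symbol, 1 each, and all 9 were among the 12147 genes tested. PSMD3, a subunit of the proteasome's regulatory particle, is not analysed here. The study measured total RNA on 15 Affymetrix arrays, 3 biological replicates in each of 5 groups, and set clones resistant to trastuzumab emtansine (T-DM1) against the line they came from. T-DM1 is trastuzumab, which binds HER2, joined to a drug that poisons microtubules. The clones, called C#1, C#2 and C#3 with C#6 as the last and written here as clones 1, 2, 3 and 6, are BT474 cells selected by long exposure to T-DM1, grown up from single cells and then kept in 5 nM T-DM1 for 3 months. They were set against parental BT474, a HER2-amplified human breast cancer line that is sensitive to the drug. Each resistant group is therefore 1 clone, so a p-value covers the spread between replicates of that clone and not the spread between clones that selection could give. Drug in the medium and resistance cannot be told apart in these groups, since the labels give continued drug only for the clones.

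An amplicon is a stretch of chromosome present in extra copies, and in HER2-positive breast cancer the genes beside HER2 are commonly gained with it and highly expressed. The neighbours have unrelated jobs. GRB7 is an adaptor that binds phosphorylated receptors, HER2 among them; STARD3 moves cholesterol at late endosomes, PGAP3 remodels the lipid of GPI anchors, and ORMDL3 holds back the first enzyme of sphingolipid synthesis. MED1 and MED24 are subunits of Mediator, which links transcription factors to RNA polymerase II, and CDK12 is a kinase of that polymerase. MIEN1 is a lipid-anchored protein known from cell migration, and IKZF3 (Aiolos) is a lymphoid zinc finger factor. In the RefSeq gene order (GRCh38.p14) they run MED1, CDK12, STARD3, PGAP3, MIEN1, GRB7, IKZF3, ORMDL3 and MED24, all within 8 tested genes of GRB7.

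The 15 arrays were close in scale, but every clone array had a lower upper quartile than every parental array. The upper quartile of log2 values lay between 5.80 and 5.89 on the clone arrays and between 5.94 and 5.96 on the parental arrays. Pearson's r was 0.985 to 0.993 within groups and 0.975 to 0.991 between groups. All 12 luminal epithelial markers with a symbol, out of 14 listed, passed the filter. Of markers of other cell types, KRT5 (basal), IL7R (lymphoid), DCN and LUM (fibroblast) were never above the 40th percentile of an array. KRT14 and OXTR (basal), CD2, LCK and BLNK (lymphoid) and THY1 (fibroblast) were above it on all 15 arrays, and POU2AF1 (lymphoid) on 14. Of these 12 luminal genes, 3 rose and 4 fell in clone 1, 3 and 3 in clone 2, 2 and 4 in clone 3, and 3 and 6 in clone 6. The shares of all genes called in each clone are given below. GATA3, a luminal factor, changed by -2.89, -3.14, -0.76 and -2.36 (log2) in clones 1, 2, 3 and 6. AGR2 changed by -1.25, -1.17, -0.06 and -0.78 in the same clones. Other luminal markers rose in all of them, TFF1 by 0.70, 1.16, 0.58 and 1.51 and TFF3 by 0.69, 1.03, 1.17 and 1.24. In bulk RNA, fewer cells that express a gene and less RNA per cell cannot be told apart.

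The neighbours did not move as a block in clones 1, 2 and 3. In clone 6 all but IKZF3 had negative changes, 5 of them called. Against parental cells, STARD3, ORMDL3 and MED24 rose and MED1 fell in clone 1, and ORMDL3 and MED24 rose and MED1 fell in clone 2. In clone 3 GRB7 alone was called, lower. There 3 of the 9 had an unadjusted limma p under 0.05, beside 3612 of all 12147 genes. In clone 6 GRB7, PGAP3, MED24, CDK12 and MED1 fell and IKZF3 rose. Calls come from limma with an adjusted p under 0.05 over all 12147 genes. The 4 calls among 9 neighbours in clone 1 (3 higher, 1 lower) stand beside 17.2% of all tested genes called, 6.03% higher and 11.2% lower. In clone 2 there were 3 calls (2 higher, 1 lower), beside 16.9% of all genes, 5.47% higher and 11.5% lower. In clone 3 there was 1 call, beside 17.2% of all genes, 6.22% higher and 11.0% lower. Clone 6 had 6 calls (1 higher, 5 lower), beside 22.4% of all genes, 7.73% higher and 14.7% lower. The median log2 change of the 9 neighbours was 0.08, 0.00, -0.03 and -0.37 in clones 1, 2, 3 and 6, where all genes had -0.02, -0.02, -0.00 and -0.02. All 4 comparisons share the same 3 parental arrays. Among all genes, the share of calls that were higher was 35.0%, 32.3%, 36.2% and 34.5% in clones 1, 2, 3 and 6, and 47.9%, 47.8%, 49.7% and 50.3% after renewed quantile normalization; no neighbour's call against parental cells changed under that scaling.

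**Figure D1:**
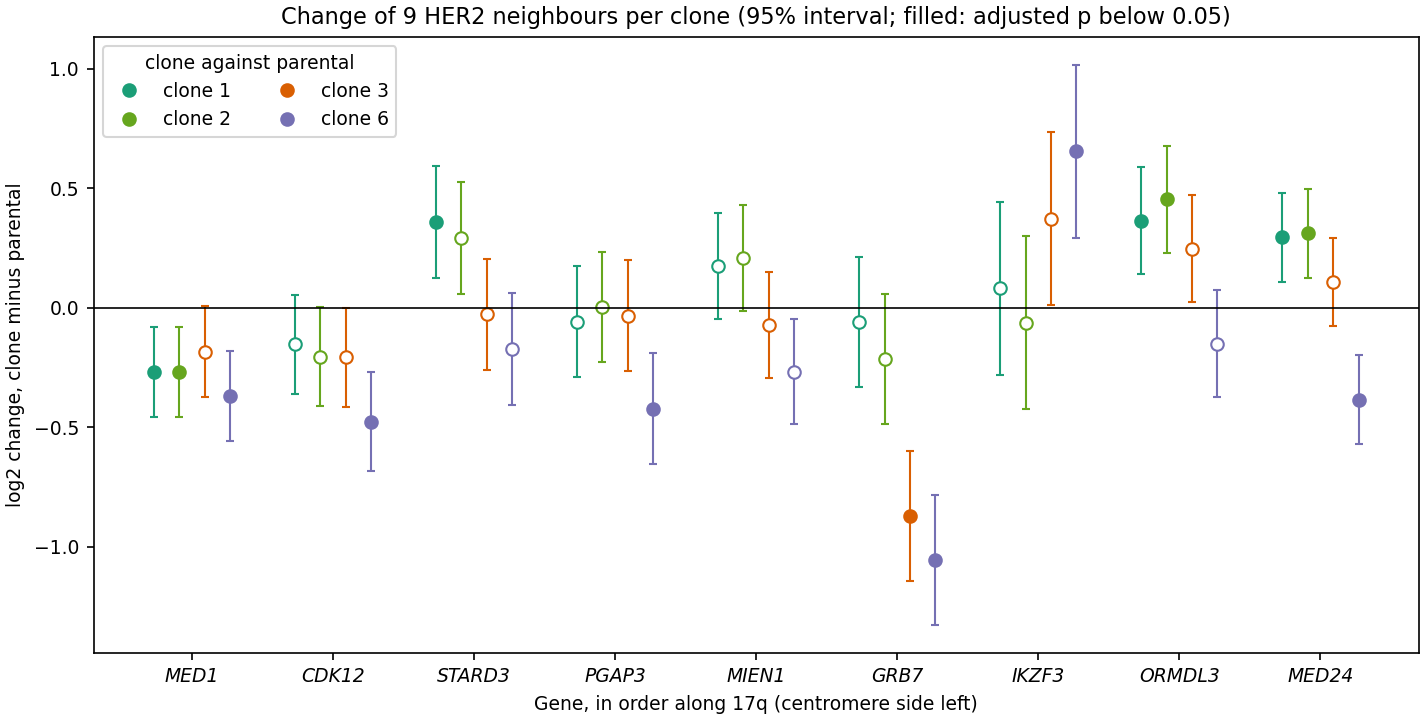
Log2 change of each of the 9 neighbours in clones 1, 2, 3 and 6 against parental cells, in chromosome order, with 95% intervals from limma; filled points have an adjusted p under 0.05. GRB7 stands apart in clones 3 and 6, at -0.87 and -1.05, while ORMDL3 and MED24 are higher in clones 1 and 2.

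GRB7, the receptor adaptor, split the clones into high and low. Its log2 values were 10.40, 10.24 and 10.28 in clone 1 and 10.43, 10.07 and 9.96 in clone 2. They were 9.73, 9.47 and 9.29 in clone 3 and 9.37, 9.22 and 9.34 in clone 6, against 10.40, 10.28 and 10.41 in parental cells. Every array of clones 3 and 6 lay below every array of clones 1 and 2 and of parental cells, and clones 1 and 2 overlapped the parental range. GRB7 fell by 0.87 in clone 3 (1.83-fold, SE 0.13, limma adjusted p = 0.000274) and by 1.05 in clone 6 (2.08-fold, adjusted p = 2.54e-05). In clone 1 the change was -0.06 (95% interval -0.33 to 0.21) and in clone 2 it was -0.21 (-0.48 to 0.06), neither past the threshold.

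**Figure D2:**
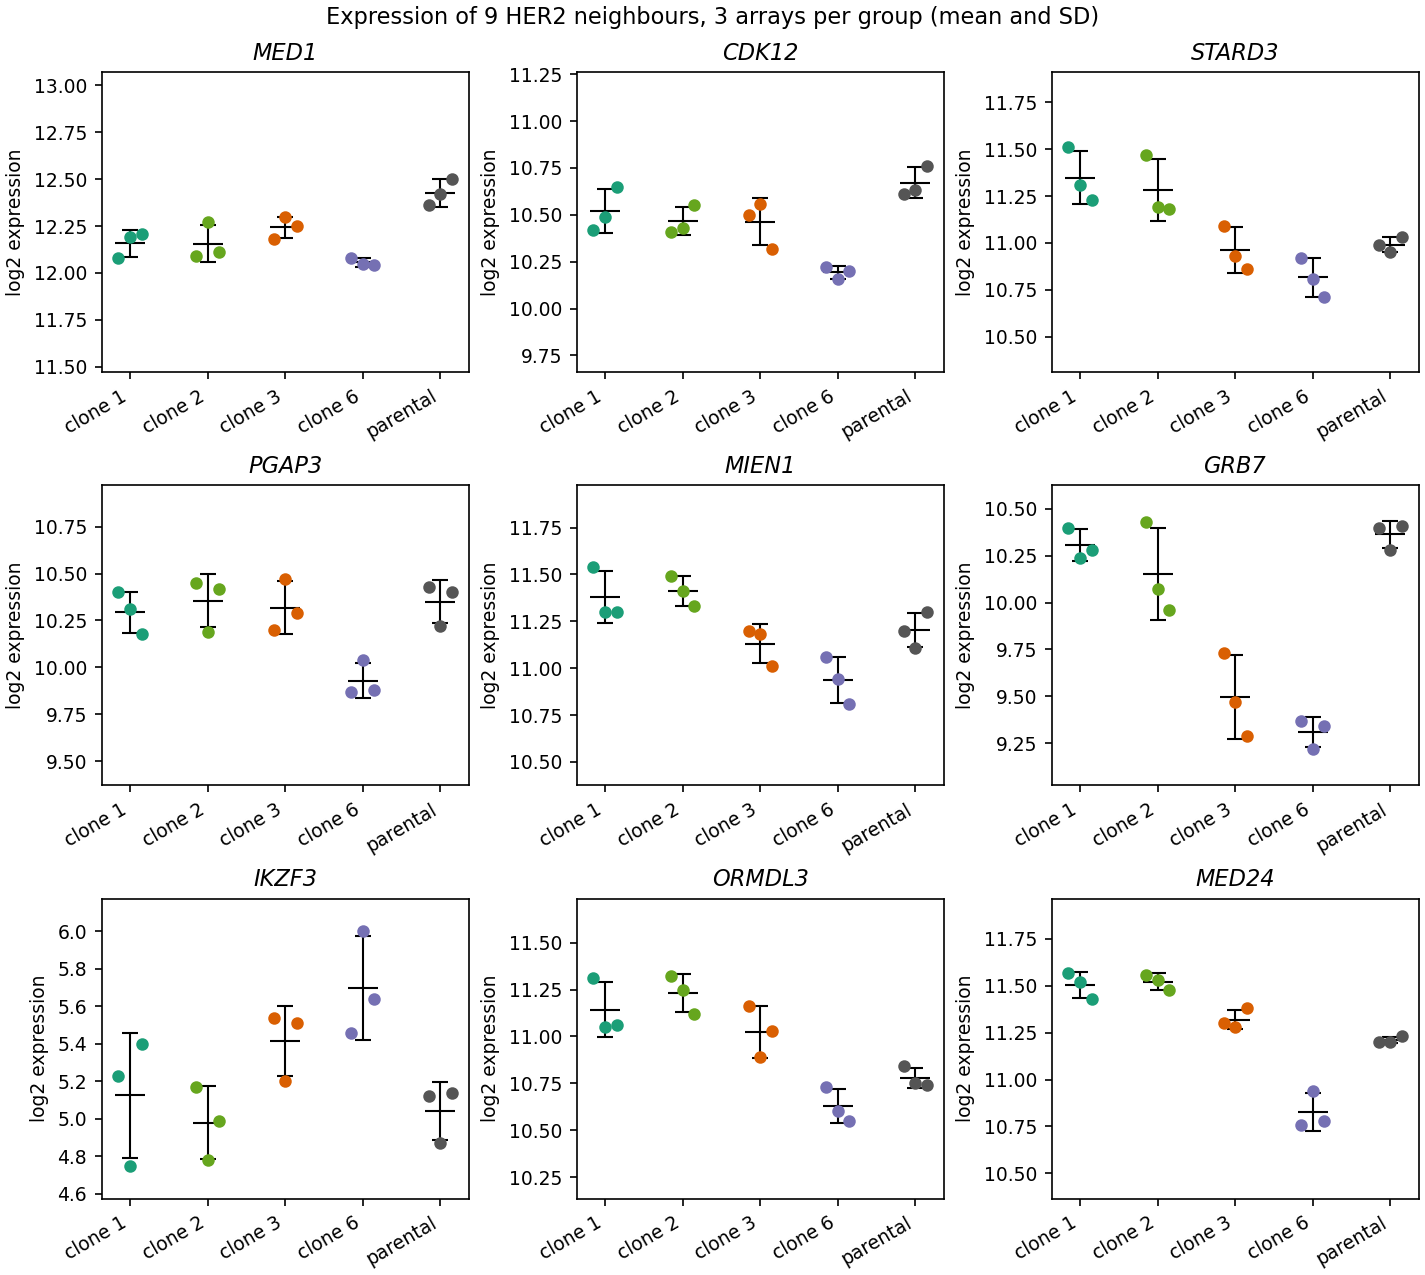
Log2 expression of the 9 neighbours on each array (points), with the mean and SD of 3 arrays per group, each panel with its own axis range of equal height. GRB7 is low on all arrays of clones 3 and 6. The clone 6 points lie below the parental points for all neighbours other than IKZF3, though STARD3, MIEN1 and ORMDL3 were not called there. The share of all genes with such a separation is not given here.

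Set against each of the other 8 neighbours on the same array, GRB7 lay below the parental range in clones 3 and 6 for all 8 partners. In clones 1 and 2 it did so for 4 partners, STARD3, MIEN1, ORMDL3 and MED24. This comparison was chosen after the values were seen and has no test. Relative to the parental mean, the GRB7 minus STARD3 difference was -0.42 ± 0.08, -0.51 ± 0.09, -0.84 ± 0.10 and -0.88 ± 0.12 in clones 1, 2, 3 and 6, against 0.00 ± 0.04 in parental cells (log2, SD, n = 3 each). Against PGAP3, the mean difference was -0.00 in clone 1 and -0.22 in clone 2, both overlapping the parental range, and -0.84 in clone 3 and -0.63 in clone 6, which did not. Clones 1 and 2 also overlapped the parental range for CDK12 and IKZF3. For MED1 clone 2 overlapped it, and clone 1 lay at or above its upper end, at 0.11 to 0.39 against -0.07 to 0.11 in parental cells. Such a difference shows unequal change of the 2 genes on an array: in clone 1 GRB7 itself changed by -0.06, STARD3 by 0.36 and MED1 by -0.27.

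**Figure D3:**
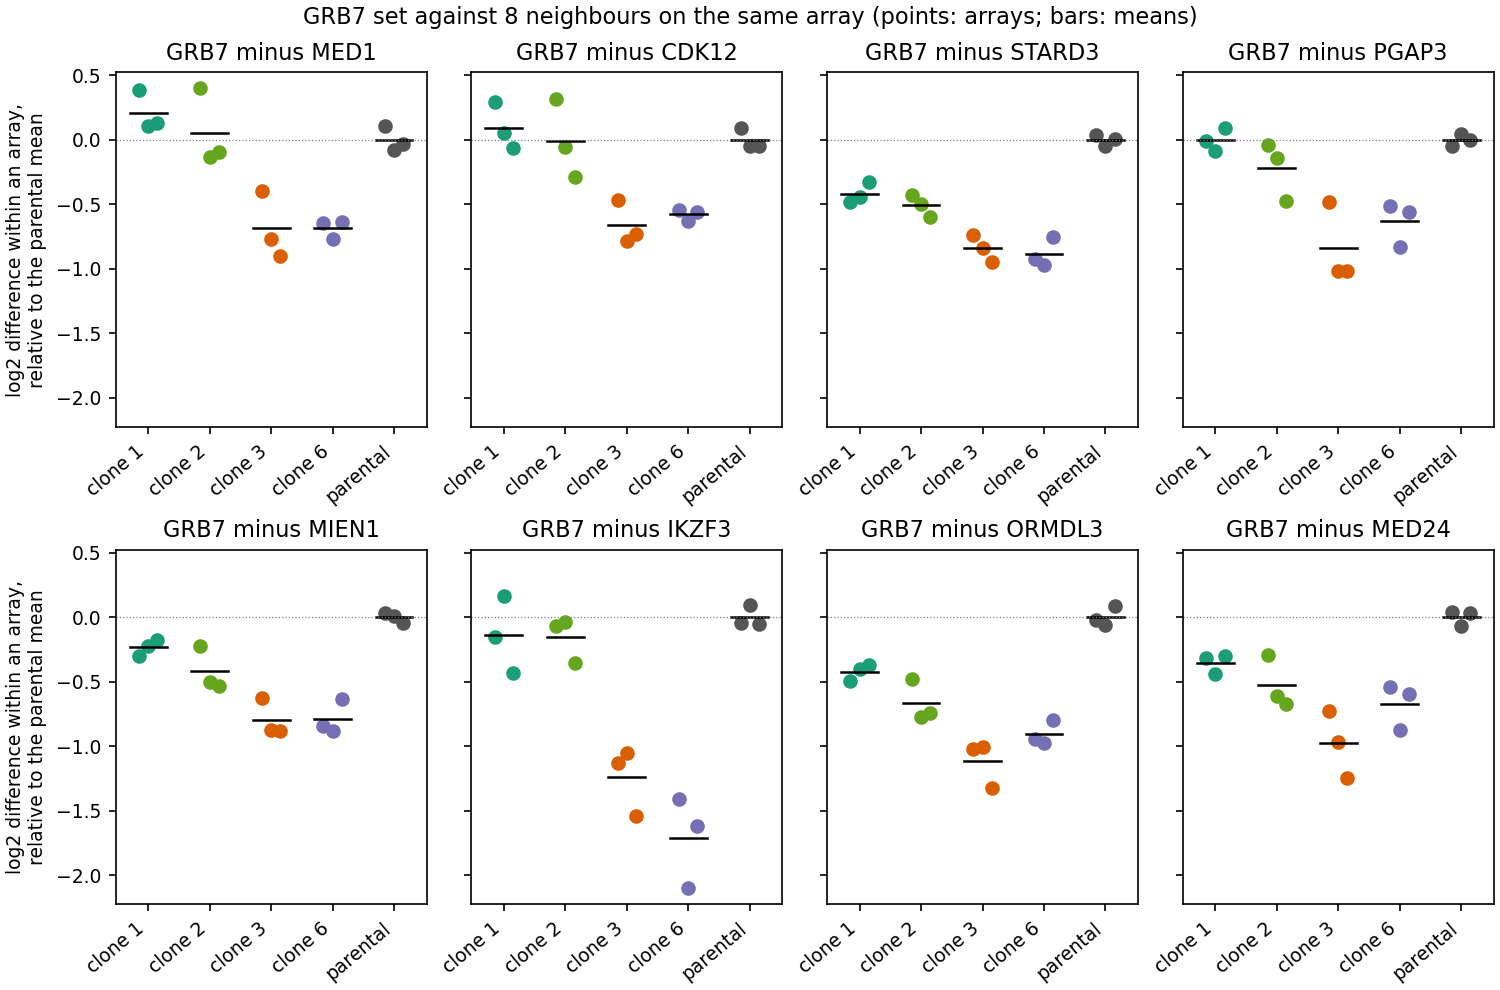
GRB7 minus each of the other 8 neighbours on each array (points; bars are group means), in log2 relative to the parental mean. Clones 3 and 6 lie below parental cells in all 8 panels, and clones 1 and 2 lie below them for STARD3, MIEN1, ORMDL3 and MED24 only.

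STARD3, the endosomal cholesterol carrier, was higher in clone 1. It measured 11.51, 11.31 and 11.23 in clone 1, 11.47, 11.19 and 11.18 in clone 2, and 11.09, 10.93 and 10.86 in clone 3. It measured 10.92, 10.81 and 10.71 in clone 6, against 10.99, 10.95 and 11.03 in parental cells. Arrays of clones 1 and 2 were all above the parental ones, those of clone 6 all below, and those of clone 3 spread around them. The rise of 0.36 in clone 1 (SE 0.11, adjusted p = 0.0333) passed the limma test, and the 0.29 of clone 2 did not (adjusted p = 0.0809). The clone 1 call was lost without any 1 of the 3 parental arrays or without replicate 1 or 2 of clone 1, with adjusted p up to 0.136 (lowest without an array 0.0229). The changes in clone 3 (-0.03) and clone 6 (-0.17) did not pass.

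MIEN1 had the same order of clones as STARD3 apart from clones 1 and 2. Its means were 11.38 ± 0.14, 11.41 ± 0.08, 11.13 ± 0.10 and 10.94 ± 0.12 in clones 1, 2, 3 and 6, against 11.20 ± 0.09 in parental cells (log2, SD, n = 3 each). None of its changes against parental cells passed the test: 0.18, 0.21, -0.07 and -0.27, with adjusted p = 0.0808 for the last. The change in clone 6 passed with a trended, robust prior (limma adjusted p = 0.0285) and with array weights (0.0207), which brings the lower calls of that clone to 6 of 9. Over the 15 arrays STARD3 and MIEN1 correlated with r = 0.94, and with r = 0.85 after group means were removed. The 15 arrays share groups and normalization, so these are descriptions. Across all 12146 other genes, STARD3 was the one most like MIEN1 by Pearson's r. The RefSeq promoters (GRCh38.p14, 250 bases before and 50 after the start) of this pair are shown because the pair moved most alike; capitals mark matches, on either strand, to the GC box GGGCGG or the AP-2 motif GCCNNNGGC.
STARD3, chr17:39636894-39637193, plus strand: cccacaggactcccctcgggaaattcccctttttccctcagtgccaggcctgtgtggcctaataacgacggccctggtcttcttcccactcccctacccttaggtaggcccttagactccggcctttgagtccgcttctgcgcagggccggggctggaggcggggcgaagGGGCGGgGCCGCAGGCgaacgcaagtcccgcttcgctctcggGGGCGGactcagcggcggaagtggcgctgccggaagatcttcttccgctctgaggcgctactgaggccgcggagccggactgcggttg
MIEN1, chr17:39730483-39730782, minus strand: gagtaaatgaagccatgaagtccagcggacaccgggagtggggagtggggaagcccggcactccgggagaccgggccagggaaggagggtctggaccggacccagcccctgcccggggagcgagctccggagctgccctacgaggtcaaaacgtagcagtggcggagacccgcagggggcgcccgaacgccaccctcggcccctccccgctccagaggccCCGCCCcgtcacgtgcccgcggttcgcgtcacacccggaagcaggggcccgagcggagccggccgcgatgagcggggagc
The STARD3 window holds 2 GC boxes and 1 AP-2 match, with no overlap, and the MIEN1 window holds 1 GC box. GGGCGG occurs in 45.0% and GCCNNNGGC in 23.2% of the 35116 RefSeq promoters of that length. A match is a run of letters and not a measured site.

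PGAP3, the GPI anchor enzyme, was low in clone 6 alone among the tests against parental cells. It measured 9.87, 10.04 and 9.88 in clone 6, against 10.43, 10.22 and 10.40 in parental cells, with no overlap. The other clones ranged from 10.18 to 10.47 and overlapped parental cells. PGAP3 fell by 0.42 in clone 6 (SE 0.11, 1.34-fold, adjusted p = 0.0105). It changed by -0.06, 0.00 and -0.03 in clones 1, 2 and 3, with 95% intervals reaching no further than -0.29 and 0.24.

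ORMDL3, the inhibitor of serine palmitoyltransferase, was higher in clones 1 and 2. It measured 11.31, 11.05 and 11.06 in clone 1, 11.32, 11.25 and 11.12 in clone 2, and 11.16, 10.89 and 11.03 in clone 3. It measured 10.73, 10.60 and 10.55 in clone 6, against 10.84, 10.75 and 10.74 in parental cells. All 9 arrays of clones 1, 2 and 3 lay above the parental arrays, and all 3 of clone 6 lay below. The rise was 0.37 in clone 1 (SE 0.11, limma adjusted p = 0.0245) and 0.45 in clone 2 (adjusted p = 0.00703). The 0.25 of clone 3 (adjusted p = 0.123) and the -0.15 of clone 6 (adjusted p = 0.355) did not pass. The clone 1 call was lost without parental replicate 2 or 3 or clone 1 replicate 1, with adjusted p up to 0.109, and the clone 2 call held without each array in turn (up to 0.0342).

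MED24, a Mediator subunit, moved in both directions. It measured 11.57, 11.52 and 11.43 in clone 1, 11.56, 11.53 and 11.48 in clone 2, and 11.30, 11.28 and 11.38 in clone 3. In clone 6 it was 10.76, 10.94 and 10.78, against 11.20, 11.20 and 11.23 in parental cells. The 9 arrays of clones 1, 2 and 3 were all above the parental ones and the 3 of clone 6 all below. MED24 rose by 0.30 in clone 1 (SE 0.09, limma adjusted p = 0.0275) and by 0.31 in clone 2 (adjusted p = 0.0209), and it fell by 0.38 in clone 6 (adjusted p = 0.00453). The rises of clones 1 and 2 were lost without any 1 of the 3 parental arrays, or without replicate 1 or 2 of the clone itself, with adjusted p up to 0.0865 and 0.0678, and that of clone 1 also in a fit of its 6 arrays alone (0.0522). The fall in clone 6 held without each array.

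MED1, the Mediator subunit that binds nuclear receptors, was lower by the test in clones 1, 2 and 6. Between clones 1 and 2, 0% of all genes were called, so whether they count as separate cases was not tested. It measured 12.08, 12.19 and 12.21 in clone 1, 12.09, 12.27 and 12.11 in clone 2, and 12.18, 12.30 and 12.25 in clone 3. It measured 12.08, 12.05 and 12.04 in clone 6, against 12.36, 12.42 and 12.50 in parental cells. All 12 clone arrays lay below all parental arrays. MED1 fell by 0.37 in clone 6 (SE 0.09, limma adjusted p = 0.0066) and by 0.27 in clones 1 and 2 (adjusted p = 0.0481 and 0.0475); the -0.18 of clone 3 did not pass (adjusted p = 0.183). The calls in clones 1 and 2 sit at the threshold and were lost without any 1 of 12 of the 15 arrays, with adjusted p up to 0.18 and 0.177. In clone 1 the call held without clone 2 replicate 1 or 2 or clone 6 replicate 1, and in clone 2 it held without clone 1 replicate 1, clone 2 replicate 2 or clone 6 replicate 1. In clones 1 and 2, these subunits of one complex, at the outer ends of the listed stretch, had opposite signs, and in clone 6 both were lower. Their RefSeq promoters (GRCh38.p14) are shown for that contrast, with CCAAT, searched on either strand, in capitals.
MED24, chr17:40054359-40054658, minus strand: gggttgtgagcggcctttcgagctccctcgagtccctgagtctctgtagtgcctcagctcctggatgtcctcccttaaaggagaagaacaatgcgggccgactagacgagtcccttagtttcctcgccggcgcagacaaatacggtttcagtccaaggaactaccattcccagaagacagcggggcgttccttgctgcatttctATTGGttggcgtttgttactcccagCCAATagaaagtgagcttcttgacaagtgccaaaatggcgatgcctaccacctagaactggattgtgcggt
MED1, chr17:39451214-39451513, minus strand: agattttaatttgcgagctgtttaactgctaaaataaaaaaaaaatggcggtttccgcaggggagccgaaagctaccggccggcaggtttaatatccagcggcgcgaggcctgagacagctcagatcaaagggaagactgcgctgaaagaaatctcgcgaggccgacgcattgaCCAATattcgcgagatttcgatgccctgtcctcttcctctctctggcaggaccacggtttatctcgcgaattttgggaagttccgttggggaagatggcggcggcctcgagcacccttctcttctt
MED24 has 2 CCAAT matches and MED1 has 1, and CCAAT occurs in 34.6% of the 35116 promoters. TATAAA, found in 11.5% of promoters, is in none of the 4 windows printed.

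CDK12, the RNA polymerase II kinase that maintains expression of long DNA repair genes, was lower in clone 6. It measured 10.22, 10.16 and 10.20 there, against 10.61, 10.63 and 10.76 in parental cells. The other clones ran from 10.32 to 10.65, where 1 array of clone 1 (10.65) overlapped the parental range and those of clones 2 and 3 lay below it. CDK12 fell by 0.48 in clone 6 (SE 0.10, 1.39-fold, adjusted p = 0.00215), a call that held without each array. Its changes of -0.15, -0.20 and -0.21 in clones 1, 2 and 3 did not pass (adjusted p = 0.331, 0.17 and 0.169).

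IKZF3 rose in clone 6, where 5 of the other 8 genes fell. It measured 5.23, 4.75 and 5.40 in clone 1, 5.17, 4.78 and 4.99 in clone 2, and 5.54, 5.20 and 5.51 in clone 3. In clone 6 it was 5.46, 6.00 and 5.64, against 5.12, 4.87 and 5.14 in parental cells. Arrays of clones 3 and 6 were all above the parental ones, and those of clones 1 and 2 overlapped them. IKZF3 rose by 0.66 in clone 6 (SE 0.17, adjusted p = 0.0108), and the 0.37 of clone 3 did not pass (adjusted p = 0.155). The clone 6 call was lost without clone 6 replicate 2 (adjusted p = 0.0638) or parental replicate 2 (0.0558), with adjusted p between 0.00518 and 0.0638 over the arrays left out.

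The IKZF3 signal needs care. Its values, 4.75 to 6.00, lay between the median of all probe sets on an array (4.03 to 4.10) and a level just above the upper quartile. Its probe set's ID lies between those of GRB7 and ZPBP2, and the nearest 40 chromosome 17 probe sets of known strand were 40 forward and 0 reverse. IKZF3 itself is transcribed in reverse, like PGAP3, MIEN1, ORMDL3, MED24 and MED1, whose nearest 40 probe sets were 39 reverse and 1 forward each. Whether the probe set reads the IKZF3 transcript was not tested. Of 12 listed lymphoid markers, 5 had a symbol and 4 passed the filter, and the summed level of the list (log2) was 7.24 to 7.50 in clone 6 and 7.06 to 7.27 in clone 3, against 7.57 to 7.77 in parental cells. The sum is carried by BLNK, a B cell adaptor, which averaged 6.84 in clone 6 and 6.49 in clone 3, against 7.19 in parental cells, and was called lower in clones 1, 2 and 3. The other 3 that passed, CD2, LCK and POU2AF1, had group means of 3.76 to 4.29, and LCK averaged 4.05 in clone 6 and 4.14 in clone 3, against 4.08 in parental cells. The part of lymphoid RNA in the IKZF3 result was not tested.

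Between clones, clone 6 differed most from clones 1 and 2. In clone 1 against clone 6, 7 neighbours were higher (GRB7, STARD3, PGAP3, MIEN1, ORMDL3, MED24 and CDK12) and IKZF3 was lower, beside 12.7% of all genes called (7.07% higher, 5.61% lower). In clone 2 against clone 6, 6 were higher (the same without CDK12) and IKZF3 was lower, beside 11.2% of all genes (5.69% higher, 5.47% lower). MED24 was higher by 0.68 in clone 1 (limma adjusted p = 9.75e-05) and by 0.70 in clone 2 (adjusted p = 7.5e-05) than in clone 6, and GRB7 by 1.00 (9.96e-05) and 0.84 (0.000476). In clone 3 against clone 6, PGAP3, ORMDL3 and MED24 were higher by 0.39, 0.40 and 0.49 (adjusted p = 0.0341, 0.025 and 0.00175), beside 9.01% of all genes (4.96% higher, 4.06% lower). GRB7 did not pass in that pair, with a difference of 0.19 and a 95% interval of -0.09 to 0.46.

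Clone 3 differed from clones 1 and 2 mainly in GRB7. In clone 1 against clone 3, GRB7 was higher by 0.81 (adjusted p = 0.000377) and STARD3 by 0.39 (0.0231), the only 2 calls among the 9, beside 16.8% of all genes (8.15% higher, 8.65% lower). In clone 2 against clone 3, only GRB7 was called, higher by 0.66 (adjusted p = 0.0021), beside 15.8% of all genes (6.96% higher, 8.79% lower). STARD3 was higher by 0.32 in that pair and missed the threshold (limma adjusted p = 0.0609), but passed it with a stricter filter (0.0474), with a trended, robust prior (0.0203), and without clone 1 replicate 1 (0.0493) or clone 3 replicate 1 (0.0499). Between clones 1 and 2, 0 of the 9 were called by limma and 0 had an unadjusted p under 0.05, beside 0% of all genes called. Across all genes that pair had 807 with an unadjusted p under 0.05, and it had 6 calls with the replicate number as a block and 5 with a trended, robust prior. For GRB7 the clone 1 minus clone 2 difference was 0.15, with a 95% interval of -0.12 to 0.43. Of the 21 clone-pair calls, 11 held without each array in turn: those of GRB7, all 3 of MED24, those of ORMDL3 in clones 1 and 2 against clone 6, STARD3 in clone 1 against clone 6 and MIEN1 in clone 2 against clone 6.

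An F test for any difference among the 4 clones called 7 of the 9 neighbours, beside 22.5% of all genes. GRB7 (adjusted p = 5.29e-05) and MED24 (6.61e-05) had the smallest values, and CDK12 (0.0688) and MED1 (0.437) did not pass. Clone 6 had the lowest mean of the clones in 8 of the 9 genes, CDK12 and MED1 among them. In IKZF3 it had the highest. The share of all genes with clone 6 lowest is not given here. Over all tested genes clone 6 also had the largest share called lower against parental cells (14.7%).

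Several neighbours also moved together from array to array. Over the 15 arrays, r was 0.89 for ORMDL3 with MED24, 0.86 for STARD3 with ORMDL3, 0.78 for CDK12 with MED1 and 0.73 for GRB7 with STARD3. After group means were removed, GRB7 with STARD3 stood at 0.83 and STARD3 with ORMDL3 at 0.78, whereas ORMDL3 with MED24 stood at 0.28. IKZF3 correlated negatively with each of the other 8, from -0.69 with GRB7 to -0.43 with ORMDL3. Replicate 1 was the highest array of its clone for 6, 7, 5 and 6 of the 9 genes in clones 1, 2, 3 and 6, and replicate 3 was the highest parental array for 7. These correlations rest on arrays that share groups and normalization and are given with no test.

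Along 17q around GRB7, calls of 1 sign did not run over 3 or more neighbouring tested genes in any clone. Among GRB7 and the 20 tested genes on each side, 7 were higher and 3 lower in clone 1, 7 and 2 in clone 2, 1 and 7 in clone 3, and 2 and 13 in clone 6. Over all tested genes, 6.03% were higher and 11.2% lower in clone 1, and 5.47% and 11.5% in clone 2. The shares were 6.22% and 11.0% in clone 3, and 7.73% and 14.7% in clone 6. No clone had 3 neighbouring tested genes in a row called with 1 sign. The other 32 genes of the window had median changes of 0.07, 0.08, -0.11 and -0.11 in clones 1, 2, 3 and 6, where the 779 tested chromosome 17 genes had -0.02, -0.00, 0.02 and -0.02. FBXL20, an F-box protein next to MED1 on its outer side, was higher by 0.48, 0.40 and 0.54 in clones 1, 2 and 3 (adjusted p = 0.0023, 0.00759 and 0.00106). CASC3, a core protein of the exon junction complex lying 2 tested genes beyond MED24, was lower in all 4 clones, with -0.65 in clone 1 (adjusted p = 0.00117). These 2 genes were chosen after their values were seen.

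**Figure D4:**
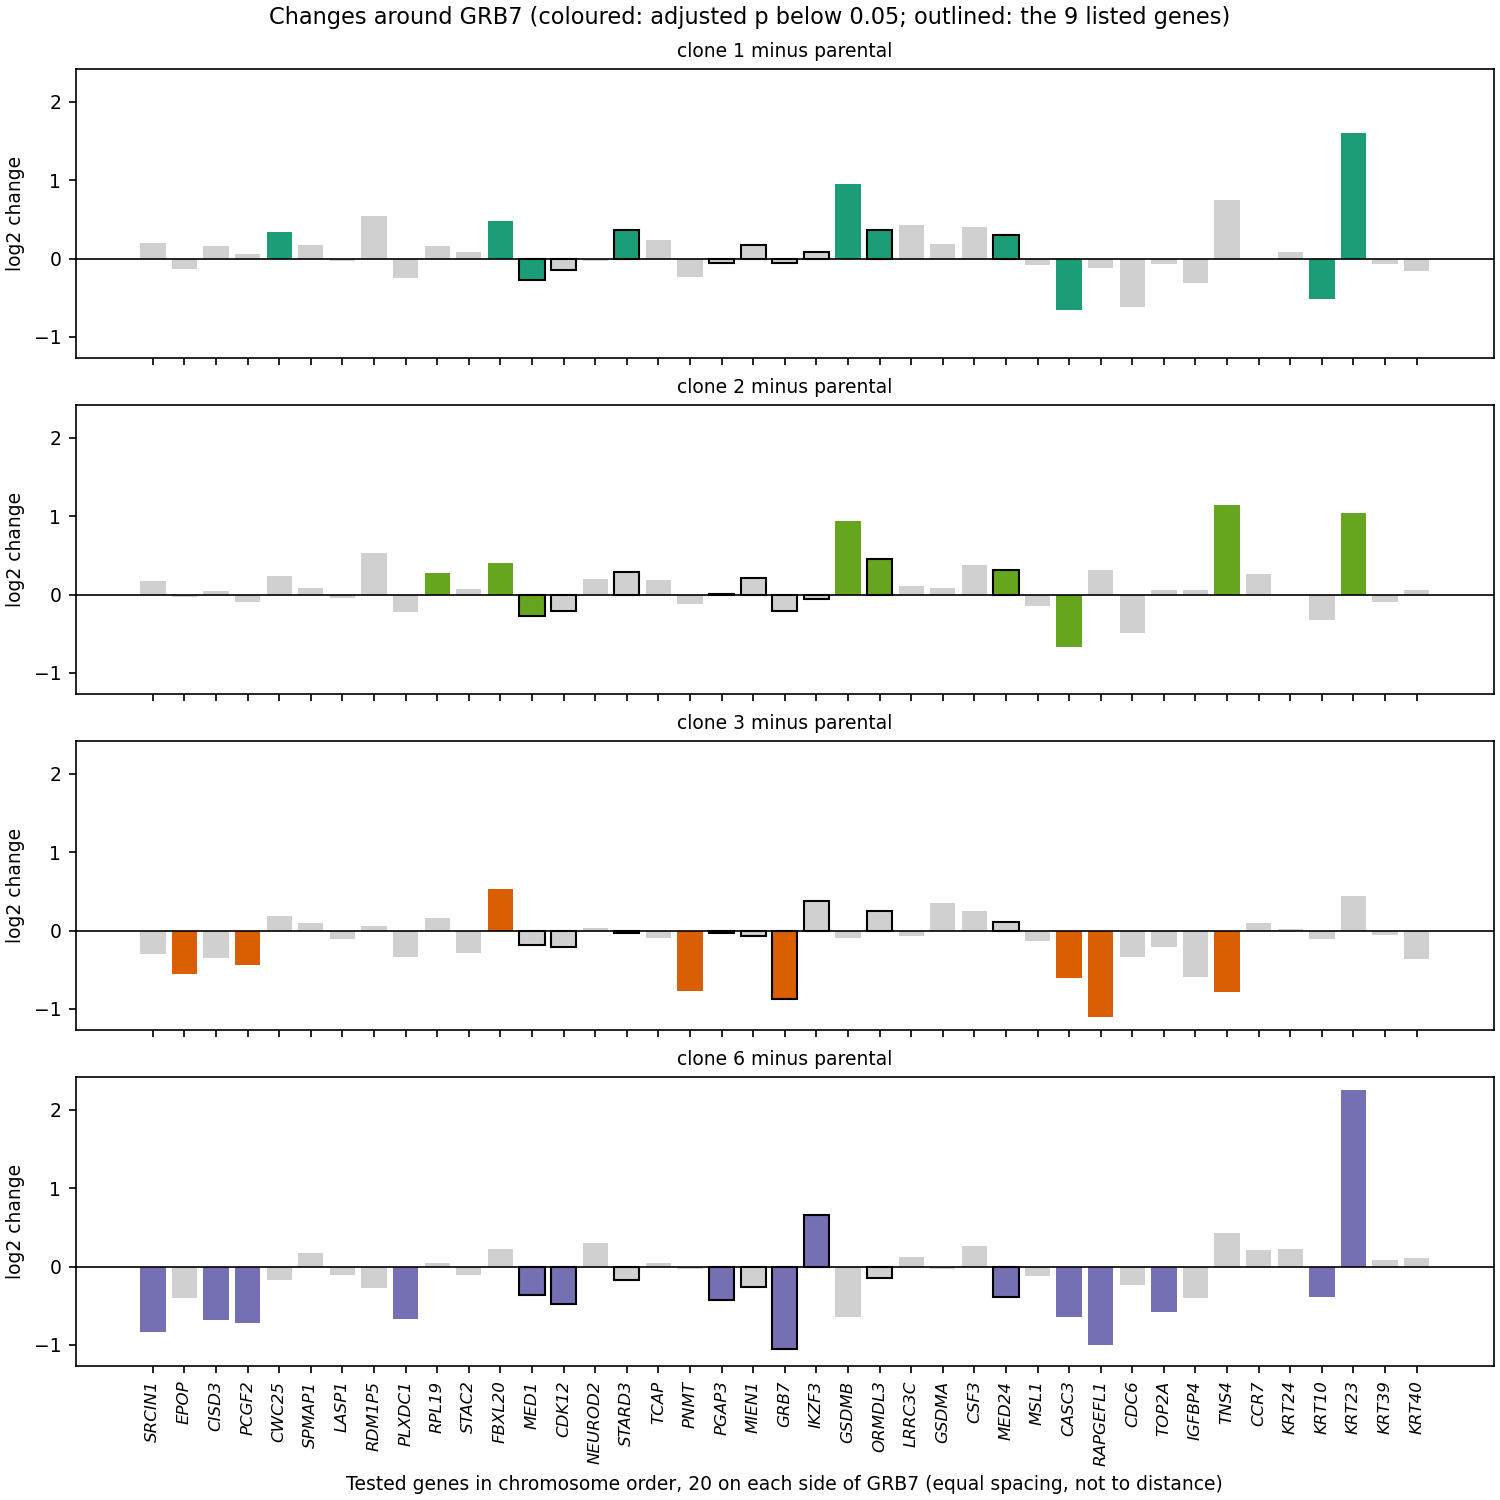
Log2 change against parental cells of GRB7 and the 20 tested genes on each side, in RefSeq gene order with equal spacing, 1 panel per clone; coloured bars have an adjusted p under 0.05 and outlined bars are the 9 neighbours. Clone 6 has 13 lower and 2 higher coloured bars, and clone 1 has 3 lower and 7 higher.

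Of 40 further genes listed for 17q12 to 17q21, 25 were tested. Calls were 3 higher and 1 lower in clone 1, 5 higher and 1 lower in clone 2, 1 higher and 5 lower in clone 3, and 7 lower in clone 6. These counts stand beside the shares of all genes given above for each clone. GSDMB, a gasdermin between IKZF3 and ORMDL3, rose by 0.95 and 0.94 in clones 1 and 2 (SE 0.28, adjusted p = 0.0298 and 0.0315). RAPGEFL1 fell by 1.10 in clone 3 and by 1.00 in clone 6 (SE 0.21, adjusted p = 0.00215 and 0.00291). SRCIN1, an inhibitor of SRC signalling, fell by 0.83 in clone 6 (adjusted p = 6.41e-05). TNS4, a focal adhesion protein, rose by 1.15 in clone 2 (adjusted p = 0.00599) and fell by 0.79 in clone 3 (adjusted p = 0.0473).

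A list of 30 genes at 17q22 to 17q23, another stretch of that arm often gained in breast cancer, had 19 tested. Their calls were 5 higher in clone 1, 4 higher and 2 lower in clone 2, 5 lower in clone 3, and 1 higher and 10 lower in clone 6, with medians of 0.02, -0.01, -0.03 and -0.49. YPEL2 rose by 1.88 in clone 1, 1.62 in clone 2 and 0.65 in clone 6 (limma adjusted p = 1.12e-06, 7.09e-06 and 0.00608). PRR11, a cell cycle gene, fell by 0.41 in clone 3 and by 0.88 in clone 6 (limma adjusted p = 0.013 and 2.1e-05). BCAS3 fell by 0.81 in clone 6 (adjusted p = 0.000278). At 20q13, gained in many breast tumours, 16 of 31 genes were tested, with 2 higher and 4 lower in clone 1, 1 and 2 in clone 2, 2 and 3 in clone 3, and 4 and 3 in clone 6. BCAS1 there rose by 0.60 in clone 1, 1.51 in clone 3 and 1.41 in clone 6 (limma adjusted p = 0.00763, 4e-06 and 4.27e-06). The counts of both lists stand beside the shares of all genes given above for each clone.

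Other subunits of the complex that holds MED1 and MED24 were called in both directions in clones 3 and 6 and lower in clones 1 and 2, where lower calls also outnumber higher ones over all tested genes. Of 31 further Mediator subunits and paralogues, 28 were tested, with 7 lower in clone 1, 10 lower in clone 2, 4 higher and 7 lower in clone 3, and 3 higher and 7 lower in clone 6. Their medians were -0.21, -0.28, -0.07 and -0.16, and their counts stand beside the shares of all genes given above. After renewed quantile normalization the lower calls were 2, 6, 5 and 4, clones 3 and 6 had 4 higher calls each, and the medians were -0.13, -0.17, -0.01 and -0.05. MED13, of the kinase module and also on the 17q22 to 17q23 list, fell by 0.43, 0.55 and 0.69 in clones 2, 3 and 6. Its SE was 0.10, with limma adjusted p = 0.00589, 0.00106 and 9.46e-05. MED12, of the same module, fell by 0.92 in clone 3 and by 0.44 in clone 6 (limma adjusted p = 0.000564 and 0.0415). MED13L fell by 0.66, 0.53 and 0.67 in clones 1, 2 and 6 (adjusted p = 0.00559, 0.0222 and 0.00371).

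Genes that act with the other neighbours gave mixed counts. These, and those for GRB7, Ikaros, GPI anchor and proteasome genes, stand beside the shares of all genes given above for each clone. Of 17 partners and dependent repair genes of CDK12, 11 were tested, with 1 higher and 2 lower in clone 1, 2 lower in clone 2, 3 higher and 1 lower in clone 3, and 2 and 2 in clone 6. The paralogue CDK13 fell by 0.83 in clone 6 (SE 0.11, adjusted p = 4e-05), and WEE1, a mitotic entry kinase, fell by 1.26 there (adjusted p = 2.8e-05). In sphingolipid synthesis, 8 of 16 genes were tested, with 2 higher and 1 lower in clone 1, 1 and 1 in clone 2, 1 higher in clone 3, and 1 higher and 2 lower in clone 6. Ceramide synthase CERS6 rose in all 4 clones, by 0.43, 0.36, 0.45 and 0.48 (SE 0.12, limma adjusted p = 0.0184, 0.0461, 0.0144 and 0.00717). CERS2 fell by 0.73, 0.69 and 0.44 in clones 1, 2 and 6 (adjusted p = 0.000908, 0.00147 and 0.0186). In endosomal cholesterol transport, 11 of 15 were tested, with 1 higher and 4 lower in each of clones 1 and 2, 1 and 2 in clone 3, and 2 and 3 in clone 6. STARD10, a lipid carrier related to STARD3, changed by -0.51, -0.42, -0.39 and -0.36 in clones 1, 2, 3 and 6 (SE 0.09, largest adjusted p 0.00742 in clone 6).

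For GRB7, 9 of 11 family members and partners were tested, with 2, 2, 1 and 3 called lower in clones 1, 2, 3 and 6. GRB10, its close paralogue, fell by 0.82, 0.65 and 0.50 in clones 1, 2 and 6 (SE 0.12, limma adjusted p = 0.000263, 0.00144 and 0.00689). PTK2, the focal adhesion kinase, fell by 0.42 in clone 3 and by 0.52 in clone 6 (adjusted p = 0.0079 and 0.00129). In the Ikaros family, 3 of 4 further genes were tested and all 3 fell in clone 6, IKZF4 by 0.54 (adjusted p = 0.00236), where the IKZF3 probe set was higher. IKZF1 and IKZF2 were dim, at 3.88 and 3.97 in parental cells, below the array medians of 4.03 to 4.10. Of 28 GPI anchor genes 5 were tested, with 1 higher in clone 3 (MPPE1, 0.33, adjusted p = 0.0299) and 1 lower in clone 6 (GPAA1, -0.30, adjusted p = 0.0431). Of 21 proteasome regulatory particle genes 2 were tested, and SEM1 fell by 0.36 in clone 2 (adjusted p = 0.0171).

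The genes whose pattern over the 15 arrays was most like that of GRB7 lie on other chromosomes. By Pearson's r over all 12146 other genes they were CAMK1D (0.960), CNTN1 (0.958), PRTG (0.954), FAR2 (0.952) and POU2AF3 (0.944), where the median gene had -0.00. FAR2, on chromosome 12, changed by -2.90 in clone 3 and by -3.48 in clone 6, with 0.08 and -0.06 in clones 1 and 2. CAMK1D, on chromosome 10, changed by -1.35 in clone 3 and by -1.63 in clone 6. The genes most like the other neighbours were TMEM86A for STARD3 (0.961), NAPRT for PGAP3 (0.918), HIRIP3 for IKZF3 (0.882), MAPT for ORMDL3 (0.931), HEATR6 for MED24 (0.955), CKAP2 for CDK12 (0.976) and TRA2A for MED1 (0.943). MAPT and HEATR6 are on chromosome 17, and HEATR6 changed by 0.39, 0.38, 0.06 and -0.59 in clones 1, 2, 3 and 6.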

How the data were processed

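The authors deposited log2 expression values per probe set, made with RMA; Affymetrix Expression Console 1.4.1 and Transcriptome Analysis Console are also named, all per the submitters' processing notes. What each tool did, and the genome build, are not given in the sources used here. The RMA method can compress differences between arrays. It also sets arrays to a common distribution at the probe level, so shifts of all genes cannot be seen. Of 53617 probe sets, 16098 (30.0%) had 1 gene symbol in the platform annotation, updated through RefSeq (GRCh38.p14); 37519 had none. A probe set was kept if at least 3 arrays had it over that array's 40th percentile, and the one with the highest mean stood for a gene. From these values, limma 3.58.1 (R 4.3.3) fitted 1 mean per group on all 15 arrays (10 residual degrees of freedom). Benjamini-Hochberg adjustment was over 12147 genes. The fit was also run on simulated data with independent noise and changes in clone 1 alone, a simpler setting than these data. The outcome of that run is not given here and is no support for the calls. The number of arrays limits the precision. Named genes are all listed neighbours, up to 4 called genes per list with the largest change, and those most alike by r. Of same-numbered arrays, 10 of 18 pairs between clones and 0 of 12 with parental cells exceeded r = 0.1 in their deviations from group means; clones 1 and 6 alone did so for all 3 numbers, and the block changed no neighbour's call between them. Alternatives were other filters, scalings, weights, a replicate block and leaving out each array. The neighbours and all gene lists were chosen with earlier results of these data known.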

Additional observations from a re-analysis of the deposited data

Results flagged for a closer look

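The F test among the 4 clones found differences between clones in 7 neighbours, given here as the highest minus the lowest clone mean in log2. The span was 1.00 for GRB7 (clone 1 over clone 6), 0.53 for STARD3 (clone 1 over clone 6), 0.43 for PGAP3 (clone 2 over clone 6) and 0.47 for MIEN1 (clone 2 over clone 6). It was 0.72 for IKZF3 (clone 6 over clone 2), 0.60 for ORMDL3 and 0.70 for MED24 (both clone 2 over clone 6).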

How the results depend on the processing

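Under 10 other settings and the 15 fits that each left out 1 array, 62 of the 90 neighbour comparisons kept their side of the threshold throughout and 0 called changes reversed. GRB7 in clones 3 and 6, and MED24, CDK12 and MED1 in clone 6, kept their calls in all of them. At an adjusted p under 0.01, the higher calls were 0 in clone 1, 1 in clone 2 and 0 in clone 6, and the lower calls were 0 in clones 1 and 2. The MED1 calls of clones 1 and 2 were also lost (0 lower calls) with no filter on dim probe sets, which raised the genes tested to 14884, and in fits of the 6 arrays compared. With a trended, robust prior clone 3 had 2 lower calls, MED1 being the second; with that prior or with array weights clone 6 had 6 lower calls, MIEN1 being added, and 4 at an adjusted p under 0.01; the cause was not tested. Leaving out 1 array gave 0 to 3 higher and 0 to 1 lower calls in clone 1, 1 to 2 and 0 to 1 in clone 2, and 0 to 1 higher calls in clone 6, where 5 remained lower. The F test gave 6 to 8 calls without 1 array and 5 at an adjusted p under 0.01. With the replicate block, clone 2 had 3 higher calls, STARD3 being added at 0.29, and no call against parental cells was lost; STARD3 in clone 2 against clone 3 gained a call (adjusted p = 0.0267). In deviations from group means, same-numbered arrays of clones 1 and 6 had r of 0.175 to 0.221, all over 0.1. Those of clones 1 and 2 ranged from 0.094 to 0.462, and each clone pair other than clones 1 and 6 had 1 or 2 numbers over 0.1. As a hint from the data, 9 of 15 arrays correlated best with their own number. For the 25 further 17q12 to 17q21 genes, the settings gave 1 to 7 and 2 to 6 higher calls in clones 1 and 2, and 4 to 9 and 7 to 9 lower calls in clones 3 and 6.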
